A study of Homo sapiens with 8 samples.

Results

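The LEFTY1 and LEFTY2 locus on human chromosome 1 was examined in 3 lists of regions called from chromatin immunoprecipitation followed by sequencing (ChIP-seq). Members were all called regions that touched the hg19 window from 226020000 to 226180000, which holds LEFTY1 (226073982 to 226076846) and LEFTY2 (226124298 to 226129083). The window held 50 of the 972037 regions in all 3 lists. Of these, 15 were TEAD4 regions of cells given SB431542, 24 were SMAD2 regions of cells given the solvent DMSO, and 11 were TEAD4 regions of DMSO cells.

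WA09 cells, a long-established line of human embryonic stem cells, were kept on Matrigel in fibroblast-conditioned medium with serum replacement. They received 10 µM SB431542 for 4 h, or DMSO for the same time, and all 3 groups come from this single line. Each group was 1 library, and input, IgG and SMAD2-under-SB431542 libraries were not analysed here. The lists give a chromosome, a start and an end per region and nothing else, so no region below has a height, a read count, a p-value or a replicate error.

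LEFTY1 and LEFTY2 are neighbouring, closely similar genes for secreted proteins of the TGF-β superfamily that block signalling by Nodal. Nodal and activin receptors phosphorylate SMAD2, which enters the nucleus with SMAD4 and activates target genes, among them the LEFTY genes themselves, so that LEFTY proteins form a negative feedback on the pathway. SB431542 blocks the kinase of the activin, Nodal and TGF-β type I receptors. TEAD4 binds DNA and recruits YAP and TAZ, the co-activators that the Hippo pathway restrains. Human embryonic stem cells in the undifferentiated state are known to express both LEFTY genes. Both are known to be transcribed from the minus strand, which is textbook knowledge and not taken from the files, so the start of each gene was taken as its upper end, and the stretch between the genes lies upstream of LEFTY1 and downstream of LEFTY2. All upstream and downstream distances below rest on this.

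The number of regions in the window was close to that of an ordinary window for TEAD4 under SB431542 and for SMAD2, and on the low side for TEAD4 in DMSO. All autosomes and chromosome X were divided into 17793 windows of 160 kb that held a region of any list. The 15 TEAD4 regions under SB431542 compare with a median of 14 over those windows (interquartile range 11 to 18). The 24 SMAD2 regions compare with a median of 24 (20 to 27). The 11 TEAD4 regions of DMSO cells compare with a median of 16 (13 to 20), and 86.8% of windows held at least as many. Regions covered 1.45% of the window for TEAD4 under SB431542, 2.74% for SMAD2 and 1.18% for TEAD4 in DMSO. TEAD4 regions under SB431542 made up 57.7% of the 26 TEAD4 regions in the window (95% Wilson interval 38.9 to 74.5%), against 47.5% over both whole TEAD4 lists, which lies within the interval. SMAD2 made up 68.6% of the 35 DMSO regions (52.0 to 81.4%), against 59.2% over both whole DMSO lists, which the interval also holds. Intervals cover counting error only, and the TEAD4 lists were not made alike. All 11 TEAD4 starts of DMSO cells and all 24 SMAD2 starts in the window were multiples of 50 bp, as in the whole of those lists, compared with 0 of the 15 SB431542 starts (1.97% in that whole list). Treatment and the way of making the list therefore cannot be told apart in any comparison of the TEAD4 lists.

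**Figure D1:**
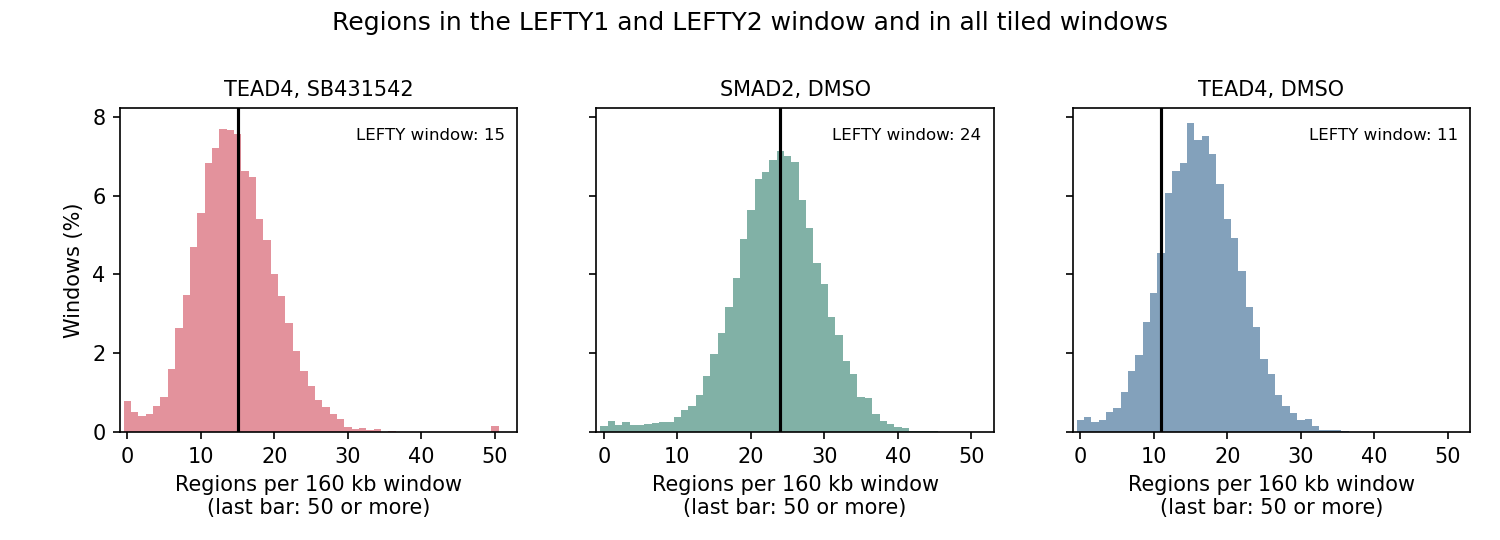
Percentage of 160 kb windows (vertical axis) by the number of called regions in the window (horizontal axis, last bar 50 or more), for TEAD4 under SB431542, SMAD2 in DMSO and TEAD4 in DMSO. The black line marks the LEFTY1 and LEFTY2 window, with 15, 24 and 11 regions in that order of panels. The first 2 lie near the middle of the bars and the last lies to the left of it.

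LEFTY1 itself carried SMAD2 regions and no TEAD4 region of either treatment. The SMAD2 region nearest to its start lay inside the gene at 226076251 to 226076349, 497 bp downstream of the start. A second lay inside the gene at 226074251 to 226074449, and another crossed the lower end of the gene at 226073851 to 226073999. These 3 regions were 99, 199 and 149 bp wide and stood late in the SMAD2 list, at rows 308446, 256295 and 350975 of 420548, which is 73.3, 60.9 and 83.5% of the way down. Row order was read as the authors' ranking with the strongest first, which is an assumption, since no header or label states it. In the window, regions later in a list tended to be narrower, with exceptions. No further region of any list lay within 2 kb of LEFTY1. Over all windows the median was 0.875 TEAD4 regions per 10 kb under SB431542 and 1.0 in DMSO. At such rates, a gene of 2865 bp would mostly hold none. For SMAD2 the median was 1.5, beside 6.98 per 10 kb in LEFTY1. The latter rests on 2 regions counted by midpoint in 2865 bp. It is not on the scale of a 160 kb window, and the difference has no test. The next SMAD2 region on the downstream side, at 226071001 to 226071199, was 2782 bp from the gene, stood earlier in the list (row 89000, 21.2%) and was 199 bp wide. On the upstream side no SMAD2 region was called for 10054 bp.

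LEFTY2 carried a TEAD4 region of DMSO cells and no SMAD2 region. The TEAD4 region lay inside the gene at 226125701 to 226125899, 3184 bp downstream of the start, at row 106070 of 289380 (36.7%). It was 199 bp wide, the median width of its list. No TEAD4 region under SB431542 met the gene, and the nearest lay 3050 bp beyond the start, at 226132134 to 226132271 (row 203740 of 262109, 77.7%). SMAD2 regions were absent from a stretch of 23801 bp around LEFTY2, with the nearest ones 7648 bp below the gene (226116501 to 226116649, row 87194, 20.7%) and 11367 bp above it (226140451 to 226140549, row 349782, 83.2%). Stretches at least that long made up 2.88% of all gaps between SMAD2 regions but 14.9% of the bases in such gaps (gaps of 1 Mb or more left out), and a given gene falls into long gaps by the share of bases. Over all windows the median per 10 kb was 1.5 SMAD2 regions and 1.0 TEAD4 regions of DMSO cells. At such rates, 0 or 1 region in the 4786 bp of LEFTY2 is ordinary. The difference between 3 SMAD2 regions touching LEFTY1 and 0 touching LEFTY2 has no test. Because the genes are closely similar, reads that fit both may have been split, dropped or assigned to either, which was not tested. The identity of their sequences was not measured here. The aligner's handling of such reads is not given in the sources used here. Whether a region lies in an exon, an intron or a UTR was not analysed here, since no hg19 transcript annotation was used.

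**Figure D2:**
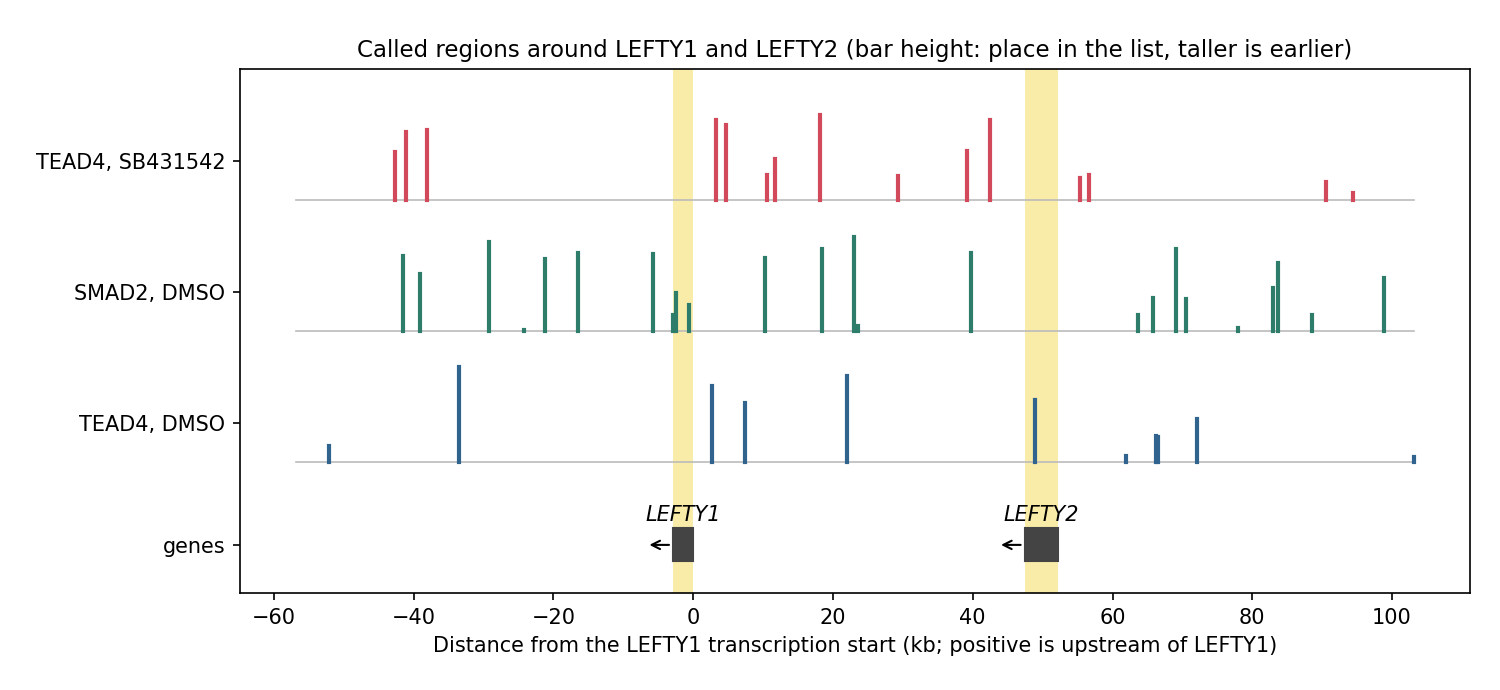
Called regions by distance from the LEFTY1 start in kb (positive is upstream of LEFTY1), with TEAD4 under SB431542 on top, then SMAD2 in DMSO and TEAD4 in DMSO. Each bar is 1 region, its height grows toward the first row of its list, and shaded bands are the gene bodies with arrows in the direction of transcription. SMAD2 bars stand in the LEFTY1 band, where no TEAD4 bar does, and a TEAD4 bar of DMSO cells stands in the LEFTY2 band.

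TEAD4 regions first appeared upstream of LEFTY1 beyond the SMAD2-bearing gene body, and did so at nearby but separate places under both treatments. Under SB431542 the nearest lay at 226080031 to 226080225, 3185 bp upstream of the start, at row 49181 (18.8%) and 195 bp wide. In DMSO cells the nearest lay at 226079451 to 226079699, 2605 bp upstream, at row 63975 (22.1%) and 249 bp wide. These regions were 331 bp apart, and each was the third by row among the window regions of its list. They were followed at 226081415 to 226081567 by another TEAD4 region under SB431542 (row 61366, 23.4%) and at 226084101 to 226084299 by another of DMSO cells (row 116083, 40.1%). These 4 TEAD4 regions lay in the 10551 bp between the last SMAD2 region in LEFTY1 and the next one upstream. In the other direction, neither TEAD4 list held a region over 36001 bp around LEFTY1, between 226043450 and 226079450, where 8 SMAD2 regions were called. Stretches that long and free of both TEAD4 lists made up 0.309% of such gaps and held 4.02% of their bases. This stretch was singled out after the positions were seen, so its length is a description.

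Some of the early rows of each list lay in pairs within a span of 5024 bp between the genes. Of the 9 regions that are the first 3 by row of each list in the window, 4 fell within 5024 bp, from 18.1 to 23.1 kb upstream of the LEFTY1 start, and no other region was called there. The first is the earliest TEAD4 region under SB431542, at 226094926 to 226095119 (row 36575, 13.95%, 194 bp). Beside it, 31 bp away, lay the third SMAD2 region by row, at 226095151 to 226095399 (row 69213, 16.5%, 249 bp). The second TEAD4 region of DMSO cells by row lay at 226098801 to 226099049 (row 35923, 12.4%, 249 bp). The earliest SMAD2 region of the window followed 651 bp further, at 226099701 to 226099949 (row 17883, 4.25%, 249 bp). The SMAD2 region of the first pair lay 3401 bp from the TEAD4 region of the second, near the whole-list median of 3101 bp from SMAD2 to TEAD4 in DMSO. The 651 bp gap was shorter than that median. The 31 bp gap was shorter than the whole-list median of 2015 bp from TEAD4 under SB431542 to SMAD2. This group was noticed after the rows were seen and has no test. None of its members overlapped another.

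The other early rows lay on either side. The earliest TEAD4 region of DMSO cells, and the earliest of the window by its share of rows, was at 226043201 to 226043449 (row 8081, 2.79%, 249 bp), 30532 bp below the lower end of LEFTY1. The second SMAD2 region by row lay 4151 bp from it, at 226047601 to 226047799 (row 37018, 8.80%, 199 bp). The second TEAD4 region under SB431542 by row lay at 226119241 to 226119433 (row 48051, 18.3%, 193 bp), 4864 bp below the LEFTY2 body. Neither of the regions first by row in the TEAD4 lists overlapped a TEAD4 region of the other treatment. The nearest was 3681 bp away for the SB431542 region and 4353 bp away for the DMSO region. Over the whole lists only 6.39% of SB431542 regions and 5.69% of DMSO regions had such an overlap. The median gaps there were 3265 and 3419 bp, so lacking a partner is the common case.

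Down the lists, the window regions were spread much as rows in general. No region of any list fell in the first 1% of rows. The first 10% held 0 of 15 TEAD4 regions under SB431542, 2 of 24 SMAD2 regions and 1 of 11 TEAD4 regions in DMSO. By construction those parts hold 1% and 10% of a whole list, so none in the first 1% is ordinary for so few regions. The median place was 51.0% for TEAD4 under SB431542, 44.0% for SMAD2 and 55.7% for TEAD4 in DMSO, near the 50% that a whole list has by construction. A window of 160 kb held a region earlier than the best one here in 82.1% of cases for TEAD4 under SB431542, in 62.3% for SMAD2 and in 34.9% for TEAD4 in DMSO. Median widths were 148 bp for TEAD4 under SB431542 (145 bp over the whole list), 199 bp for SMAD2 (149 bp) and 149 bp for TEAD4 in DMSO (199 bp). SMAD2 regions in the window thus had a higher median width than their list, and TEAD4 regions of DMSO cells a lower one, with no test of either. Widths of these regions differ by multiples of 50 bp, so each difference is a single step.

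**Figure D3:**
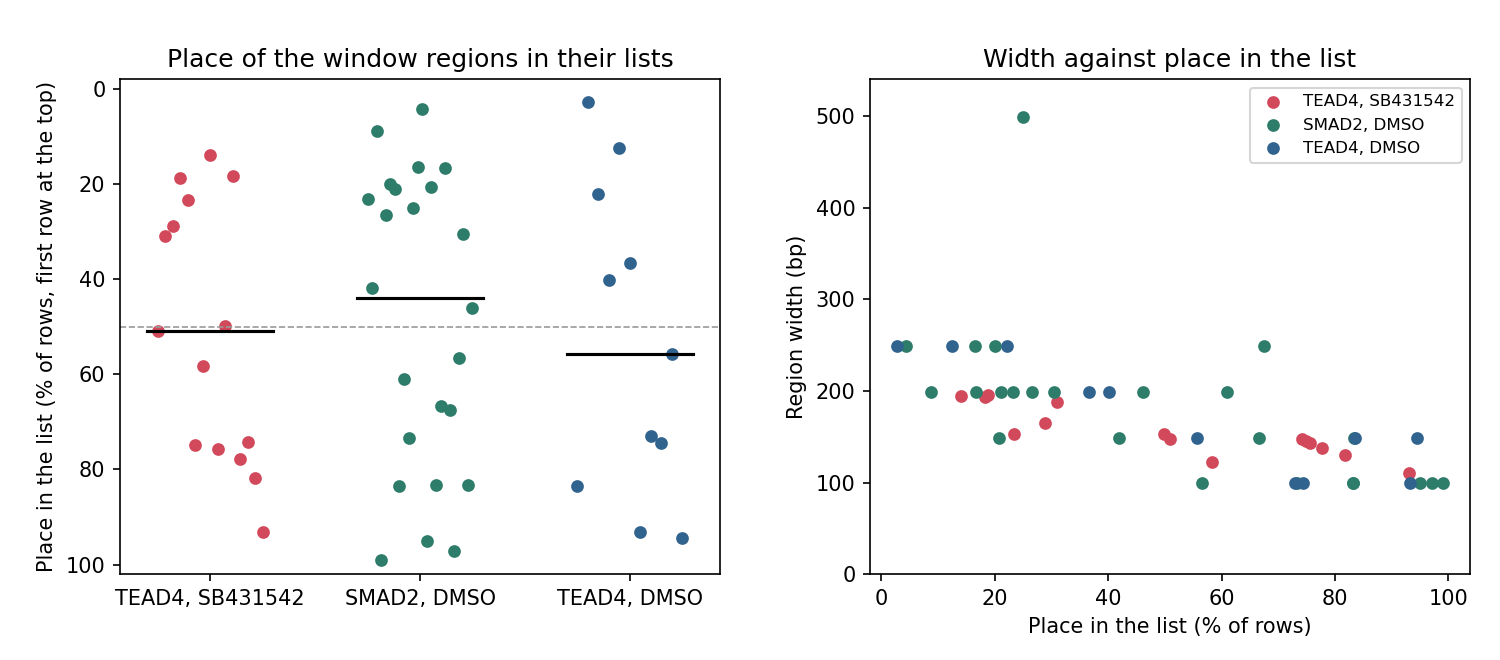
Left, place of each window region in its list as a percentage of rows (first row at the top), with black lines at the medians and a dashed line at 50%. Right, region width in bp against place in the list, where 1 SMAD2 region of 499 bp stands above the rest, which are 249 bp wide or less.

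TEAD4 regions of the 2 treatments did not coincide anywhere in the window. Under SB431542, 0 of 15 TEAD4 regions overlapped a TEAD4 region of DMSO cells by at least 1 bp, which allows a share of up to 20.0%, while 6.39% of the whole SB431542 list did. In the other direction 0 of 11 regions had a partner, which allows up to 27.3%, against 5.69% of the whole DMSO list. At the shares of the whole lists 0.96 and 0.63 regions would have had a partner, so an absence here was not distinguishable from the list-wide rate, and 42.9% of all windows held no such overlap either. Within 500 bp, 1 of 15 SB431542 regions had a DMSO partner (6.67%, 1.19 to 29.8%), the one upstream of LEFTY1 described above, against 16.4% of the whole list. Of the DMSO regions 2 of 11 did (18.2%, 5.14 to 47.7%), against 14.7%. The second of them was the last region of the window, at 226179851 to 226179999 (row 273390), whose partner lay 45 bp away and just outside the window, at 226180045 to 226180145 (row 168221 of the SB431542 list).

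SMAD2 and TEAD4 regions of DMSO cells did not overlap in the window. None of the 24 SMAD2 regions met a TEAD4 region of DMSO cells, which allows a share of up to 12.5%, against 5.29% of the whole SMAD2 list, and 0 of the 11 TEAD4 regions met SMAD2, which allows up to 27.3%, against 7.67%. The SMAD2 list's own share would have given 1.27 overlapping regions, and 30.6% of all windows held none. Within 500 bp there was 1 pair, the SMAD2 region at 226142501 to 226142649 (row 279926) and the TEAD4 region at 226142951 to 226143049 (row 210965), 301 bp apart, with the SMAD2 region 13418 bp upstream of the LEFTY2 start. That is 4.17% of the SMAD2 regions (0.74 to 20.2%), against 15.4% of the whole list, and 9.09% of the TEAD4 regions (1.62 to 37.7%), against 22.1%. A second TEAD4 region of DMSO cells lay 701 bp from the same SMAD2 region, at 226143351 to 226143449. All 3 stood in the later part of their lists, at 66.6% of rows for SMAD2 and at 72.9 and 74.4% for TEAD4.

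The only overlap between any lists joined SMAD2 in DMSO with TEAD4 under SB431542. The TEAD4 region at 226087299 to 226087443 (row 196177, 74.8%) shared 101 bp, or 69.7% of its own width, with the SMAD2 region at 226086901 to 226087399 (row 105333, 25.05%), whose nearer end is 10055 bp upstream of the LEFTY1 start. At 499 bp this SMAD2 region was the widest of the window, and 99.9% of the SMAD2 list was no wider, so the shared part was 20.2% of it. This gives 1 of 15 TEAD4 regions under SB431542 (6.67%, 1.19 to 29.8%), against 5.46% of that whole list, and 1 of 24 SMAD2 regions (4.17%, 0.74 to 20.2%), against 3.39%. Within 500 bp, 4 of 15 TEAD4 regions under SB431542 had a SMAD2 partner (26.7%, 10.9 to 52.0%), against 19.8%, and 4 of 24 SMAD2 regions did (16.7%, 6.68 to 35.9%), against 12.5%. Besides the overlapping pair and the pair 31 bp apart, these were a pair 160 bp apart with TEAD4 at 226035610 to 226035797 (row 81165) and SMAD2 at 226035251 to 226035449 (row 97877), and a pair 423 bp apart with TEAD4 at 226115925 to 226116077 (row 130709) and SMAD2 at 226116501 to 226116649. The lists come from cells under different treatments and, by their starts, were not made alike either. Each of these shares has an interval that holds the share of the whole list.

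**Figure D4:**
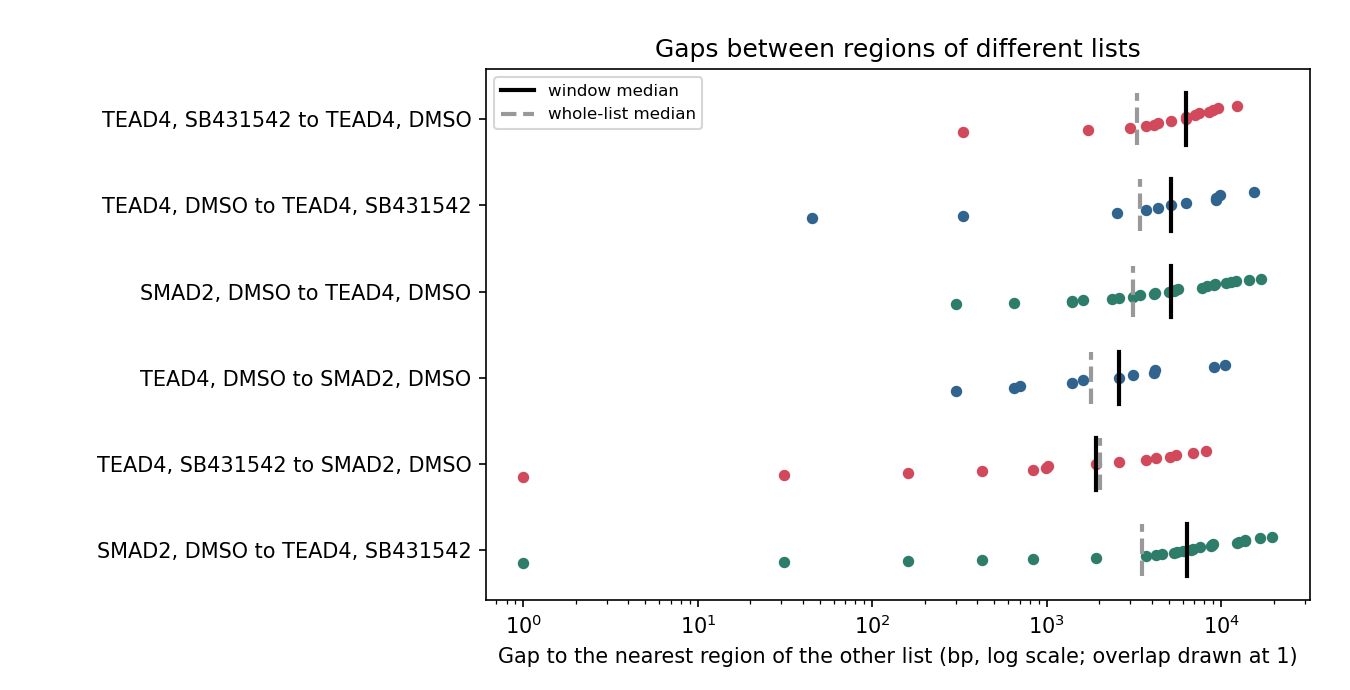
Gap in bp from each window region to the nearest region of another list (log scale, overlap drawn at 1), with a black line at the window median and a dashed grey line at the median of the whole list. The window medians lie to the right of the whole-list medians in every row except that from TEAD4 under SB431542 to SMAD2.

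Most median gaps between lists were longer in the window than over whole lists, with no test of the difference. From TEAD4 under SB431542 to the nearest TEAD4 region in DMSO the median gap was 6234 bp (331 to 12358 bp), against 3265 bp over the whole list. From SMAD2 to the nearest TEAD4 region in DMSO it was 5176 bp (301 to 16801 bp), against 3101 bp. The window holds fewer TEAD4 regions of DMSO cells than most windows, and whether this has a part in these longer gaps was not tested. From TEAD4 under SB431542 to SMAD2 the median was 1913 bp (0 to 8179 bp), close to the 2015 bp of the whole list. From SMAD2 to TEAD4 under SB431542 it was 6372 bp, against 3530 bp. From TEAD4 in DMSO it was 5173 bp to TEAD4 under SB431542, against 3419 bp, and 2601 bp to SMAD2, against 1801 bp.

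All window regions, including those named above, were also counted by their place along the locus. Counted by midpoint, the 53982 bp below LEFTY1 held 3 TEAD4 regions under SB431542, 8 SMAD2 regions and 2 TEAD4 regions in DMSO. The SMAD2 region that crosses the lower end of LEFTY1 has its midpoint in that part. The 47451 bp between the genes held 8, 5 and 3 regions in the same order, and the 50917 bp above LEFTY2 held 4, 9 and 5. Between the genes this is 1.69 regions per 10 kb for TEAD4 under SB431542, 1.05 for SMAD2 and 0.63 for TEAD4 in DMSO, beside medians over all windows of 0.875, 1.5 and 1.0 per 10 kb. The outer sides, below LEFTY1 and above LEFTY2, held 1.48 and 1.77 SMAD2 regions per 10 kb, near the median of that longer list. For TEAD4 the outer sides held 0.56 and 0.79 regions per 10 kb under SB431542, and 0.37 and 0.98 in DMSO. None of these differences has a test. Above LEFTY2 the earliest region of each list was at row 194380 for TEAD4 under SB431542 (74.2%, 226133431 to 226133577), row 69789 for SMAD2 (16.6%, 226145801 to 226145999) and row 161083 for TEAD4 in DMSO (55.7%, 226148901 to 226149049). None of the 4 TEAD4 regions under SB431542 and 5 in DMSO above LEFTY2 stood in the first 50% of its list. By construction that part holds 50% of a whole list. With so few regions this is a description and has no test.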

How the data were processed

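The deposited lists hold a chromosome, a start and an end per called region, in 3 columns without a header. Per the submitters' processing notes the build is hg19, and the values are positions. Depth is unknown, since the aligner, caller, threshold, control and read numbers were not given in the sources used here, and no occupancy was computed. List names, which carry target and treatment, fit 1 sample title each. Starts were raised by 1 bp for printing, and widths are end minus start. Regions sharing at least 1 bp were called overlapping, and gaps count the bases between regions. Shares carry 95% Wilson intervals, and a count of 0 is given the share that 3 counts allow. Windows of 160 kb were tiled over 23 chromosomes, with regions placed by midpoint. Named regions were those that overlapped another list, the first 3 rows of each list in the window, those nearest to each gene's start and those within 2 kb of a gene body; others are named in the text as pairs, as neighbours or as the first row of a side, chosen after their values were seen. The members and rules were chosen with earlier results of these data known. With 1 library per group no test was possible. The planned promoter and protein sequences of both genes were not used here. Overlap functions were checked on simulated data. Python 3.11.15, NumPy 2.4.6, pandas 2.3.3, SciPy 1.17.1 and matplotlib 3.10.9 were used.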

Additional observations from a re-analysis of the deposited data

How the results depend on the processing

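Values are given in the order TEAD4 under SB431542, SMAD2 and TEAD4 in DMSO, with 15, 24 and 11 regions in the whole window. The first 50% of rows left 7, 13 and 5 regions and the first 10% left 0, 2 and 1. Gene bodies with 20 kb on each side held 10, 13 and 7 regions, and with 10 kb they held 6, 5 and 4. Fewer rows or a smaller window lower a count by construction. The best row within 10 kb was 48051, 87194 and 63975, and within 20 kb 36575 (as in the whole window), 69213 and 63975. The overlap of TEAD4 under SB431542 with TEAD4 in DMSO, and that of SMAD2 with TEAD4 in DMSO, was 0 under every overlap rule, row choice and window tried, except that allowing a gap of 500 bp gave 1 each and a gap of 1000 bp, added after seeing the data, gave 1 and 2. The overlap of TEAD4 under SB431542 with SMAD2 was 1 and rested on the widest SMAD2 region. It became 0 with 50% of both regions, with midpoints within 100 bp, with the first 50% or 10% of rows and without the widest 1% of regions, and it became 4 with a gap of 500 bp and 6 with 1000 bp. Shifting the 160 kb windows by 80 kb, also added afterwards, gave 49.2, 51.3 and 86.6% of windows with at least as many regions, compared with 48.9, 51.8 and 86.8%. No paired analysis was possible because there are no replicates, which also prevents leaving out a library. Read depth is unknown, so a missing region means only that none was called.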
